A study of Homo sapiens with 10 samples.

Results

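Squamous differentiation and cornified envelope genes were followed through 2 comparisons in MCF10A, a non-transformed human breast epithelial line. The members are the 9 genes IVL, SPRR1A, SPRR1B, SPRR2D, SPRR3, TGM1, CSTA, SFN and TRIM29, found by their gene symbols among 26256 rows of one count table and 55736 rows of the other. The first comparison set 2 libraries of untreated MCF10A cells carrying the G12V form of the HRas oncogene, labelled H-RAS Gv12 and called G12V here, beside 2 libraries of untreated parental MCF10A cells. The oncogene was introduced by lentiviral transduction together with a GFP vector that tracked the transduction, and carrier cells were selected with hygromycin. The labels name no vector for the parental cells. In the second comparison parental MCF10A cells received 10 µM Nutlin-3a, which blocks the binding of MDM2 to p53, or the vehicle DMSO for 4 h, with 3 libraries each. All cells grew in medium with EGF, insulin, hydrocortisone, cholera toxin and horse serum. The study asked how oncogenic HRas reshapes gene expression and whether genes that are lower in the transformed cells respond to p53.

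In stratified squamous epithelia such as the epidermis, cells that leave the basal layer build a cornified envelope, a sheet of cross-linked protein beneath the plasma membrane. Involucrin (IVL) is an early scaffold of the envelope, the small proline-rich proteins (SPRR) bridge its components, and transglutaminase 1 (TGM1) forms the cross-links. Cystatin A (CSTA) inhibits cysteine proteases and is itself built into the envelope. Stratifin (SFN), the epithelial 14-3-3 protein, holds back cell cycle regulators and is a known p53 target. TRIM29 is a tripartite-motif protein of basal and squamous epithelia. MCF10A cells derive from mammary epithelium, which does not cornify, but such cultures express basal and squamous genes.

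IVL and the 4 SPRR members lie in the epidermal differentiation complex of chromosome 1. In the hg19 coordinates of the first table, IVL ran from 152881039 to 152884362, SPRR1A from 152956564 to 152958290, SPRR3 from 152974223 to 152976332 and SPRR1B from 153003679 to 153005376, all on the plus strand. SPRR2D, on the minus strand, ran from 153012201 to 153013594. SFN lies outside the complex on the same chromosome, from 27189633 to 27190947 on the plus strand. TGM1 lies on chromosome 14 from 24718320 to 24732416 and TRIM29 on chromosome 11 from 119981994 to 120008863, both on the minus strand, and CSTA on chromosome 3 from 122044011 to 122060815 on the plus strand. No other row of the first table overlapped a member on either strand. The second table was built on another annotation, in which the TRIM29 row spans 120008472 to 120056131, so levels are not compared between the tables by a test.

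The bases upstream of the transcription start are shown for the 4 members of the complex that RefSeq's promoter table holds, because these genes were at or near 0 reads together in G12V cells. The table gave entries for 5 of the 9 members, IVL, SPRR1A, SPRR1B, SPRR3 and SFN, in GRCh38.p14, a build other than that of the counts. Each line gives the 200 bases before the start, 5′ to 3′ on the plus strand, and capitals mark matches to TGANTCA, the motif bound by AP-1 factors, which reads the same on both strands. They span chr1:152908346-152908545 for IVL, chr1:152983881-152984080 for SPRR1A, chr1:153031003-153031202 for SPRR1B and chr1:153001549-153001748 for SPRR3.
IVL: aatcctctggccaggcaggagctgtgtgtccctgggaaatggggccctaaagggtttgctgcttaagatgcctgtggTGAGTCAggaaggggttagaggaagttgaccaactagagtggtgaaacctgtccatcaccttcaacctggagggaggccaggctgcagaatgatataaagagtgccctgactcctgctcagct
SPRR1A: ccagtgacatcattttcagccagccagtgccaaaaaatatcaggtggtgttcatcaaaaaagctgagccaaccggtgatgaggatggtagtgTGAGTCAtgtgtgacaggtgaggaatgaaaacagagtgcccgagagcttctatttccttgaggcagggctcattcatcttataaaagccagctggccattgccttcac
SPRR1B: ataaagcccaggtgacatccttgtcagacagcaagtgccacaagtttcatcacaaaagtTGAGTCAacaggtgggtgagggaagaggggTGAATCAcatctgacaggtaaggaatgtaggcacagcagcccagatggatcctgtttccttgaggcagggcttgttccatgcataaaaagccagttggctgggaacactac
SPRR3: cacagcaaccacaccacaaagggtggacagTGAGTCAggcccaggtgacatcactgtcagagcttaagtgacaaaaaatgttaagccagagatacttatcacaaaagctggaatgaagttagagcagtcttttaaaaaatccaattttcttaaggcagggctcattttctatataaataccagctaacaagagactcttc
The motif began 123 bases before the start in IVL, 108 in SPRR1A, 141 and 111 in SPRR1B, and 170 in SPRR3. SFN also held it, 170 bases before its start. TGANTCA was found in all 5 of these promoters and in 7.71% of the 35116 promoters of the table, each 300 bases long. TATAAA, searched on both strands, was found in 3 of the 5, at 30 bases before the start in IVL and 29 in SPRR1A and SPRR3, and in 11.53% of all promoters. A match describes the letters of the window and does not show that a factor binds there.

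Total counts were 21538593 to 23683975 per library in the first comparison and 15453226 to 17378734 in the second. Levels are given as CPM, reads of a gene scaled to a fixed library total, on library sizes scaled by edgeR's TMM method, on which 1 read was worth 0.0428 to 0.0455 CPM in the first and 0.0553 to 0.0658 CPM in the second. After low counts were removed, 14376 and 13529 genes were tested. A gene is called where edgeR's quasi-likelihood test gave a p under 0.05 after Benjamini-Hochberg adjustment over all tested genes and the absolute log2 fold change was above 0.5, the thresholds of the study. HRAS, read first as a check of the labels, held 72.6 and 65.9 CPM in MCF10A and 631 and 515 CPM in G12V libraries. Of 9 basal breast epithelial markers, all were detected in the parental cells. They summed to 10270 and 13688 CPM there and to 2576 and 5555 CPM in G12V libraries. Of the 9, 7 were called lower in G12V cells, against 5.95% of all tested genes. KRT14 and KRT6B were tested through the MCF10A libraries alone, which already required a difference. KRT17, with 37 and 9 reads in the G12V libraries, also needed the MCF10A libraries to be tested. Among the 7, the adhesion gene CDH1 had 200 and 238 CPM in MCF10A but 0.428 and 0.535 CPM in G12V libraries. This epithelial marker was thus near 0 in cells labelled epithelial, while KRT5, called lower too, held 936 and 1220 CPM in G12V libraries. ITGB4 and LAMB3 were not called, and LAMB3 held 1063 and 1210 CPM in MCF10A and 1209 and 3364 CPM in G12V libraries. Luminal markers, mainly KRT8 and KRT18, summed to 555 and 565 CPM against 432 and 450 CPM. The 9 fibroblast and mesenchymal markers summed to 811 and 1037 CPM in MCF10A and 1283 and 1686 CPM in G12V libraries, of which VIM, which cultured epithelial cells also express, made up 774 and 972 against 1230 and 1626 CPM, and DCN 25.3 and 58.3 against 48.5 and 53.1 CPM. COL1A1, PDGFRA and PDGFRB also had reads in every library, while COL1A2, COL3A1 and THY1 were at 0 in both G12V libraries. The 6 leukocyte markers summed to 32.0 and 50.7 against 60.6 and 114 CPM. CD14 had 18.0 and 37.0 against 21.7 and 39.6 CPM, and CD68 12.3 and 12.1 against 37.3 and 72.7 CPM. LYZ had reads in every library, while PTPRC and CD3E were at 0 in G12V libraries. The 4 endothelial markers summed to 8.09 and 32.2 against 7.91 and 8.79 CPM. LUM and CD68 were the markers of these other cell types called higher in G12V cells. LUM had 1 and 0 reads in MCF10A and 28 and 27 in G12V libraries. It was tested through the G12V libraries alone, which already required a difference.

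Every member had lower values in G12V than in parental cells. All 9 members were lower in both G12V libraries than in either MCF10A library. Among tested genes this held for the 7 members tested and for 27.4% of all. IVL, SPRR1A and SPRR1B are among these 7 and fall under the limit on the filter given below. TRIM29 and the transglutaminase gene TGM1 fell the most among the members with over 10 CPM in MCF10A, CSTA and SFN fell less and stayed well expressed, and IVL and the SPRR genes had 0 to 3 reads in a G12V library. Of the 7 members tested, 6 were called lower and 0 higher, against 5.95% of all tested genes called lower and 5.01% called higher. SPRR1A, SPRR1B and IVL had passed the filter on low counts through the MCF10A libraries alone, so that their presence among the tested genes already required a difference. The other 4 tested members, TGM1, CSTA, SFN and TRIM29, were all called lower.

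**Figure D1:**
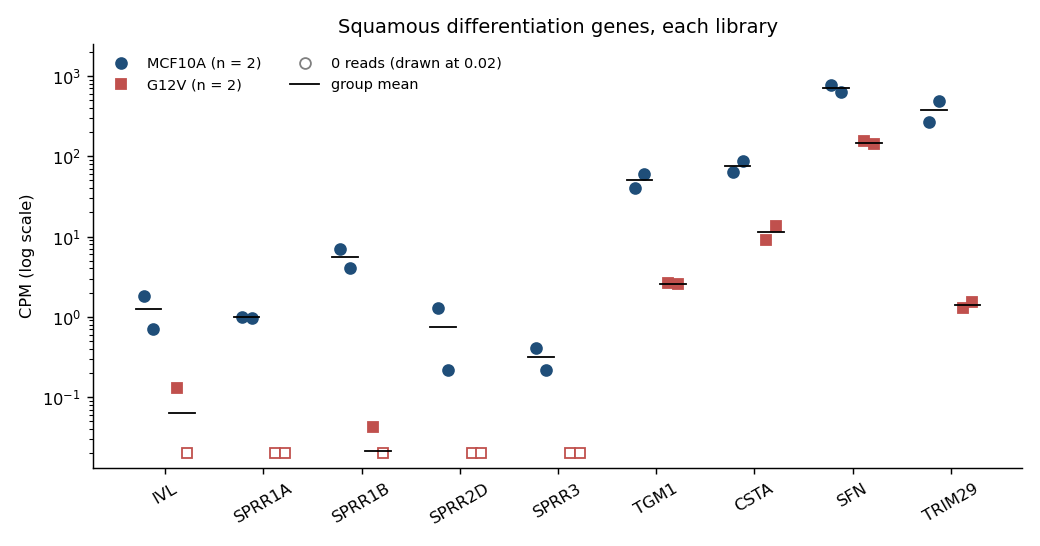
CPM of each member (log axis) in the 2 MCF10A libraries (circles) and the 2 G12V libraries (squares), with the group mean as a line and libraries of 0 reads drawn open at 0.02. Every square lies below both circles of its gene, with the widest gap that rests on reads in both groups in TRIM29.

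Among the envelope precursors, IVL had 40 and 16 reads in MCF10A libraries 1 and 2 and 3 and 0 reads in the G12V libraries, which is 1.82 and 0.705 against 0.128 and 0 CPM. Over the groups this was a 19.1-fold difference, with an exact 95% interval from counting alone of 6.22 to 95.5. The log2 fold change of -4.16 (SE 0.99) missed the threshold (edgeR quasi-likelihood, Benjamini-Hochberg adjusted p = 0.0512). It passed with DESeq2, with an adjusted p of 0.0145, and with edgeR's exact test, with 2.43e-04. All 3 G12V reads came from replicate 1, and the log2 fold change was -7.82 without that library, a value set by the prior count, and -3.24 without G12V replicate 2.

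SPRR1B had 156 and 92 reads in MCF10A (7.09 and 4.05 CPM) and 1 and 0 reads in G12V cells. The groups differed 254-fold, with a counting interval of 45.2 to 10077, and SPRR1B was called lower (edgeR quasi-likelihood, Benjamini-Hochberg adjusted p = 0.00455). Its fitted log2 fold change ran from -9.96 without G12V replicate 1, which held the only read, to -6.85 without G12V replicate 2, and was called in both fits. SPRR1A had 22 reads in each MCF10A library, or 1.00 and 0.969 CPM, and 0 in both G12V libraries. It was at least 15.03-fold lower, counted against 3 reads over the group, and was called (edgeR quasi-likelihood, Benjamini-Hochberg adjusted p = 0.0122). These neighbours are close copies, and 7.24% of the 50-base stretches of SPRR1A transcripts also occur in SPRR1B, so that reads may have been shared between them.

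SPRR2D and SPRR3 were too low to be tested. SPRR2D had 28 and 5 reads in MCF10A and 0 in both G12V libraries, at least 11.3-fold lower. The MCF10A libraries differed from each other here, and 19.38% of the 50-base stretches of SPRR2D transcripts occur in other genes, mainly of the SPRR2 family. SPRR3 had 9 and 5 reads against 0 and 0, at least 4.78-fold lower. These intervals and bounds take in the error of counting alone, as the reads carry no molecular identifiers and need not be separate molecules.

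TGM1, the cross-linking enzyme, had 40.7 and 60.7 CPM in MCF10A and 2.65 and 2.54 CPM in G12V libraries. The means were 50.7 ± 14.1 CPM (SD, n = 2) and 2.60 ± 0.0768 CPM (SD, n = 2), which on the log2 scale is a change of -4.28 (SE 0.30, edgeR quasi-likelihood, Benjamini-Hochberg adjusted p = 0.00141). The G12V libraries were nearly level, and the gap to the lower MCF10A library was wider than the spread within either group.

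CSTA, the protease inhibitor of the envelope, had 63.6 and 87.3 CPM in MCF10A and 9.06 and 13.6 CPM in G12V libraries. On the log2 scale the change was -2.73 (SE 0.30, edgeR quasi-likelihood, Benjamini-Hochberg adjusted p = 0.00529). The groups were apart, and 212 and 306 reads remained in the G12V libraries.

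SFN had 775 and 630 CPM in MCF10A and 154 and 142 CPM in G12V libraries. Its log2 fold change of -2.25 (SE 0.23) was the smallest among the called members (edgeR quasi-likelihood, Benjamini-Hochberg adjusted p = 0.00418). None of the 6 other 14-3-3 genes was called, although each had over 100 CPM in every library. Their log2 fold changes ran from -0.32 in YWHAZ to 0.08 in YWHAE, with a median of -0.16, and 0 of the 6 had an unadjusted p under 0.05 in edgeR's quasi-likelihood test. With DESeq2 and the exact test 0 were called as well.

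TRIM29 had 267 and 485 CPM in MCF10A and 1.28 and 1.52 CPM in G12V libraries. From 5874 and 11016 reads, 30 and 34 remained. The MCF10A libraries differed by more than those of any other member over 10 CPM, but the fall was far wider, at -8.07 on the log2 scale (SE 0.43, edgeR quasi-likelihood, Benjamini-Hochberg adjusted p = 7.88e-04).

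Per kilobase of annotated exon, SFN stood highest in MCF10A at 537 ± 78.6 CPM per kb (SD, n = 2). CSTA followed at 55.2 ± 12.3, TRIM29 at 37.5 ± 15.4, TGM1 at 13.6 ± 3.78 and SPRR1B at 9.00 ± 3.47 CPM per kb. CSTA and TRIM29 overlapped in their libraries, as the lowest CSTA value was 46.6 and the highest TRIM29 value 48.3, while SFN lay above all others. TGM1 and SPRR1B overlapped too, as the lowest TGM1 value was 10.9 and the highest SPRR1B value 11.45. SPRR1A at 1.49 ± 0.0331, SPRR2D at 0.710 ± 0.707, IVL at 0.586 ± 0.366 and SPRR3 at 0.218 ± 0.0927 CPM per kb formed the low end, where the range of SPRR2D, 0.209 to 1.21, overlapped those of both IVL and SPRR3. In G12V cells SFN and CSTA were again first and second, at 113 ± 6.58 and 8.31 ± 2.37 CPM per kb. TGM1, at 0.695 ± 0.0206, there stood above TRIM29, at 0.139 ± 0.0165 CPM per kb. Each length joined the exons of all annotated transcripts of the gene. It was 10.04 kb for TRIM29, 1.366 kb for CSTA and 3.735 kb for TGM1. The annotation behind the counts is not given, so the places of TRIM29 in these orders depend on the length used.

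These calls depended on MCF10A replicate 1. Without it, 0 members and 0 of all tested genes were called by edgeR's quasi-likelihood test, the smallest Benjamini-Hochberg adjusted p over all genes being 0.0502. In that fit 6 of the 7 tested members and 2830 of all genes had an unadjusted p under 0.05. The log2 fold changes kept their sign, with -8.41 in TRIM29, -4.52 in TGM1, -2.92 in CSTA, -2.06 in SFN, -7.46 in SPRR1A and -7.19 in SPRR1B, and IVL moved the most, from -4.16 to -3.30. A fit with 1 MCF10A library takes its spread from the G12V pair and assumes that the lone library varies likewise. Leaving out any other library, in fits of the same size, left 6 to 8 members and 1158 to 2129 of all genes called. With 2 libraries a group an exact permutation test cannot go below a p of 0.333, and how far the libraries of a group were grown apart is stated only as biological replicates.

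The members were next read beside the other genes of the squamous programme, in lists of 105 genes in all. Of these, 54 were tested, 22 were called lower and 4 higher, and their median log2 fold change was -1.01 against -0.0011 for all tested genes, of which 5.95% were called lower and 5.01% higher. Of the 54, 14 had under 10 reads in each G12V library and so were tested through the MCF10A libraries alone, which already required a difference, and these made up 11 of the 22 lower calls. Of the other 40, 11 were called lower. Among these 11, KRT16 (1 and 13 reads in the G12V libraries) and CDSN (7 and 10 reads) also needed the MCF10A libraries to be tested. Of the 4 higher calls, ALOX12B was tested through the G12V libraries alone. The other cornified envelope precursors were mostly silent in both lines, with 22 of 37 at 0 reads in every library and 8 tested. Only the plakin PPL, which anchors the envelope to desmosomes and keratin, was called among them, with 139 and 302 CPM in MCF10A and 23.2 and 38.2 CPM in G12V libraries (log2 fold change -2.84, edgeR quasi-likelihood, Benjamini-Hochberg adjusted p = 0.0139). Its partner plakin EVPL held 69.3 and 69.8 CPM against 85.5 and 66.5 CPM, with overlapping groups. Of the late precursors, FLG had 28 and 41 reads in MCF10A and 21 and 36 in G12V libraries, and was not called.

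Other transglutaminases went both ways. TGM2, the widely expressed tissue transglutaminase, rose from 22.04 and 11.3 CPM to 121 and 173 CPM (log2 fold change 3.14, edgeR quasi-likelihood, Benjamini-Hochberg adjusted p = 0.00669). TGM4 fell from 8.14 and 6.08 CPM to 2.095 and 1.69 CPM. Of the 6 tested protease inhibitors, 3 were called lower. These were CST6, a cystatin related to CSTA with 126 and 90 reads against 0 and 3, SPINK5, with 37 and 43 against 0 and 2, and SLPI, with 94.2 and 87.7 CPM against 18.5 and 29.2 CPM. CSTB, the closest relative of CSTA on the list, held 123 and 149 CPM against 118 and 132 CPM and was not called.

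Suprabasal and secreted differentiation genes had 5 of 11 tested genes called lower and 1 higher. KRT13, a keratin of non-cornifying squamous layers, had 78 and 38 reads in MCF10A and 0 in both G12V libraries, at least 39.6-fold lower. CALML3 went from 45 and 77 reads to 0 in both, at least 41.7-fold lower, and KRT16, a keratin of stressed epidermis, from 20.3 and 17.9 CPM to 0.0428 and 0.580 CPM. LYPD3 and CDSN were called lower as well. KRT80 was the 1 gene called higher, as it rose from 26.1 and 16.2 CPM to 315 and 359 CPM (log2 fold change 4.00, edgeR quasi-likelihood, Benjamini-Hochberg adjusted p = 0.00171). In all, 4 of the 11 had a log2 fold change above 0. Of 7 tested barrier lipid genes, ABCA12, the lipid transporter of lamellar granules, fell from 56.5 and 74.8 CPM to 0.128 and 0.0892 CPM. ALOX12B was called higher, on 2 and 2 reads in MCF10A and 11 and 14 in G12V libraries. It was thus tested through the G12V libraries alone, which already required a difference.

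Regulators of squamous differentiation held the most calls, with 11 of 20 tested genes lower and 1 higher. Over all tested genes these shares were 5.95% and 5.01%. Of the 11, 6 were tested through the MCF10A libraries alone, and 5 of the other 14 tested genes were called lower. TP63, the master factor of stratified epithelia, fell from 119 and 214 CPM to 0.214 and 0.0892 CPM. GRHL3, a grainyhead factor of barrier formation, fell from 20.95 and 18.4 CPM to 0.385 and 0.401 CPM. ZNF750 had 44 and 35 reads in MCF10A and 0 in both G12V libraries, at least 27.0-fold lower. NOTCH1, KLF4, VDR, ELF3, EHF, OVOL2 and MAF were also called lower.

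**Figure D2:**
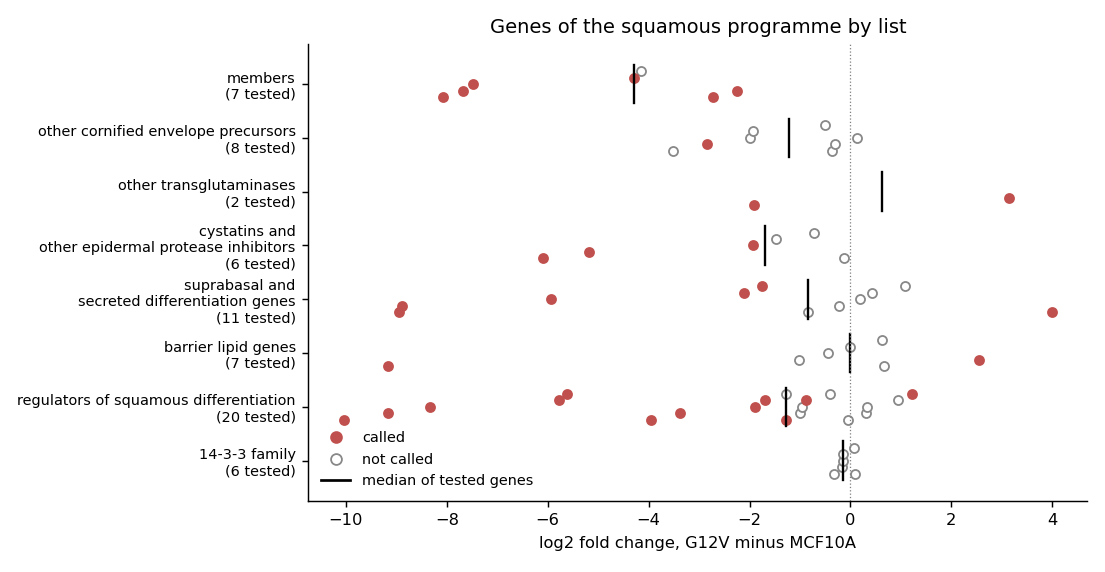
Log2 fold change (G12V minus MCF10A) of each tested gene of the members and of 7 lists, filled where called, with a bar at the median of each list. The 7 tested members lie below 0, the 6 other 14-3-3 genes lie near 0, and the fitted values beyond -7 belong in part to genes with 0 to 3 reads in G12V libraries, whose size depends on the prior count.

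Around the members, the complex was read from S100A10 to S100A1, chr1:151955386-153604513 in hg19, which held 67 rows over 1649 kb. Of these rows, 29 had no read in any library and 20 were tested. In all, 4 were called lower and 0 higher, against 5.95% and 5.01% of all tested genes. The 4 were SPRR1A, SPRR1B, S100A2 and S100A14. SPRR1A and SPRR1B were tested through the MCF10A libraries alone, as were IVL, TCHH, HRNR and LCE1E, which were not called. S100A2, 657 kb from the start of IVL, fell from 1619 and 1370 CPM to 85.0 and 59.2 CPM. S100A14, 708 kb from it, fell from 493 and 749 CPM to 0.812 and 2.14 CPM (edgeR quasi-likelihood, Benjamini-Hochberg adjusted p = 0.00124). Between them and the SPRR genes, S100A9 held 30.4 and 161 CPM in MCF10A and 173 and 455 CPM in G12V libraries, and S100A8 held 13.04 and 46.5 CPM against 64.2 and 147 CPM. Both were higher in each G12V library than in either MCF10A library, and neither was called. Thus the rows of the complex differed in direction and size, and each G12V library held at most 1 read of each of the 4 SPRR members.

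**Figure D3:**
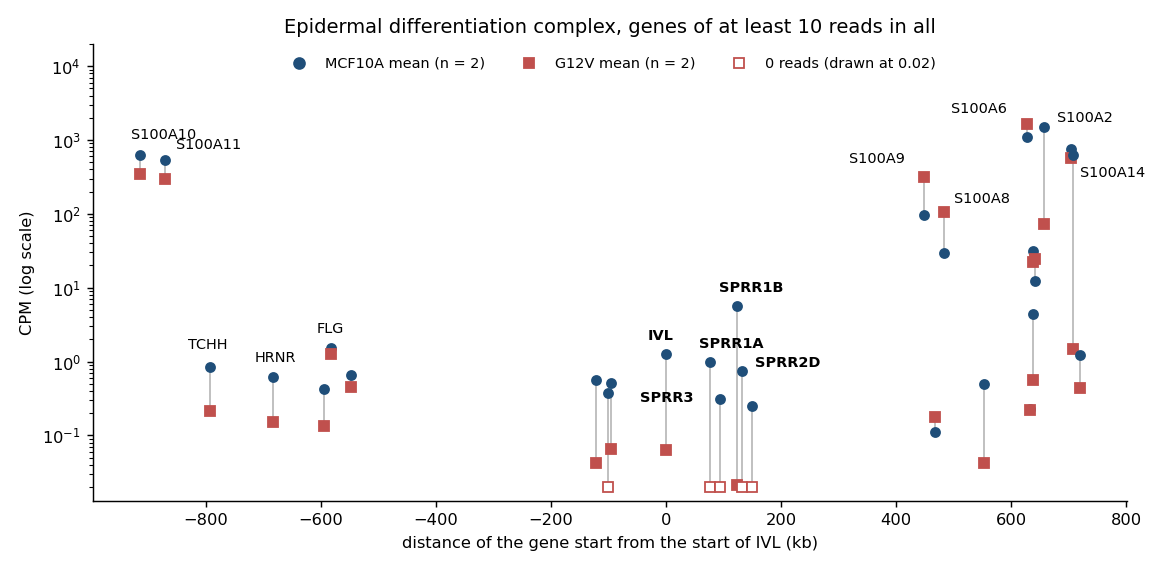
Mean CPM (log axis) in MCF10A (circles) and G12V cells (squares) of the genes of the epidermal differentiation complex with at least 10 reads in all, against the distance of each gene's start from that of IVL in kb, with members in bold and means of 0 reads drawn open at 0.02. The G12V means of IVL and the 4 SPRR members, between 0 and 133 kb, are at or under 0.0641 CPM, while S100A8 and S100A9 are higher in G12V cells.

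Nutlin-3a acted on p53 targets in the second experiment, as CDKN1A had 624 to 673 CPM in the DMSO and 2688 to 3349 CPM in the Nutlin-3a libraries, and MDM2 102 to 122 against 509 to 814 CPM. No member was called after 4 h. Of the 8 members tested, 0 were called and 0 had an unadjusted p under 0.05 in edgeR's quasi-likelihood test, where 0.17% of all tested genes were called. With DESeq2 and with edgeR's exact test 0 members were called too, although with DESeq2 1 member, SFN, had an unadjusted p under 0.05. Replicate numbers 1 to 3 are shared by both treatments in the labels, and libraries of the same number deviated together. With the replicate number as a block, 0 members were called, where 1.22% of all genes were. In that fit 1 member, SFN, had an unadjusted p under 0.05 by edgeR's quasi-likelihood test, as had 1584 of all 13529 tested genes.

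**Figure D4:**
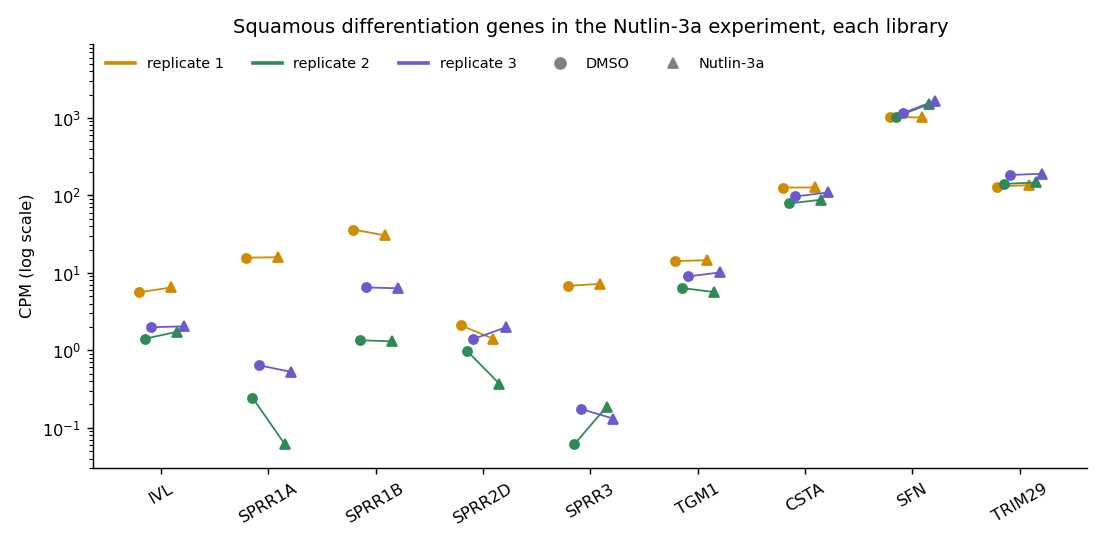
CPM of each member (log axis) in the 3 DMSO libraries (circles) and the 3 Nutlin-3a libraries (triangles), joined and coloured by replicate number. The joined points lie close together in most members, while replicate 1 stands far above the others in SPRR1A, SPRR1B and SPRR3.

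SFN, the member known as a p53 target, had 1023, 1035 and 1146 CPM in DMSO replicates 1 to 3 and 1015, 1499 and 1671 CPM in Nutlin-3a replicates 1 to 3. The groups overlapped through replicate 1, where the treated library was not higher. Within numbers the log2 difference was -0.01, 0.53 and 0.54. The log2 fold change of 0.39 (SE 0.18) gave, by edgeR's quasi-likelihood test, a p of 0.0643, or 0.9997 once Benjamini-Hochberg adjusted, and with the replicate block it was 0.36 (SE 0.10, adjusted p = 0.128).

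TRIM29 had 130, 140 and 183 CPM in DMSO and 136, 147 and 190 CPM in Nutlin-3a libraries, by replicate number. Within each number the treated library was higher, by 0.06, 0.07 and 0.06 on the log2 scale, which was far less than the spread between numbers. CSTA had 126, 78.7 and 96.7 CPM against 127, 87.7 and 109 CPM, and a log2 fold change of 0.10 (SE 0.19). TGM1 had 14.2, 6.38 and 8.98 CPM against 14.5, 5.64 and 10.1 CPM, a log2 fold change of 0.03 (SE 0.38). In these genes the order of the replicate numbers was the same under both treatments.

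The precursors were low and spread widely. IVL had 101, 23 and 34 reads in DMSO and 105, 28 and 31 reads in Nutlin-3a libraries. SPRR1A had 284, 4 and 11 reads against 258, 1 and 8, and SPRR1B had 654, 22 and 111 against 493, 21 and 96. SPRR3 had 123, 1 and 3 reads against 117, 3 and 2, and was not tested because enough reads were found in replicate 1 alone. SPRR2D had 38, 16 and 24 reads against 23, 6 and 30. All groups overlapped between treatments. The standard errors of the log2 fold changes of SPRR1A (-0.02, SE 1.57) and SPRR1B (-0.22, SE 1.16) were wide, and fell to 0.21 and 0.13 with the replicate block, where the fold changes were -0.06 and -0.16.

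Most members differed by replicate number. This was tested by edgeR's quasi-likelihood F-test of the replicate number in the fit with the block, a test added after these counts had been seen. Of the 8 tested members, 6 had a Benjamini-Hochberg adjusted p under 0.05, namely IVL, SPRR1A, SPRR1B, TGM1, CSTA and TRIM29, against 24.5% of all tested genes. Of the 8 tested members, 5 had this adjusted p and both libraries of replicate 1 highest, as had 7.21% of all tested genes. TRIM29 had it with both lowest, as had 7.52% of all tested genes. Over all tested genes, 3310 differed by replicate number. Of these, 975 had both libraries of replicate 1 highest and 1017 had both lowest. The log2 difference of replicate 2 from replicate 1 was -6.61 in SPRR1A (edgeR quasi-likelihood, Benjamini-Hochberg adjusted p = 8.63e-08), -4.64 in SPRR1B and -1.93 in IVL. SFN and SPRR2D missed the threshold, with p of 0.0576 and 0.0581 by edgeR's F-test (Benjamini-Hochberg).

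**Figure D5:**
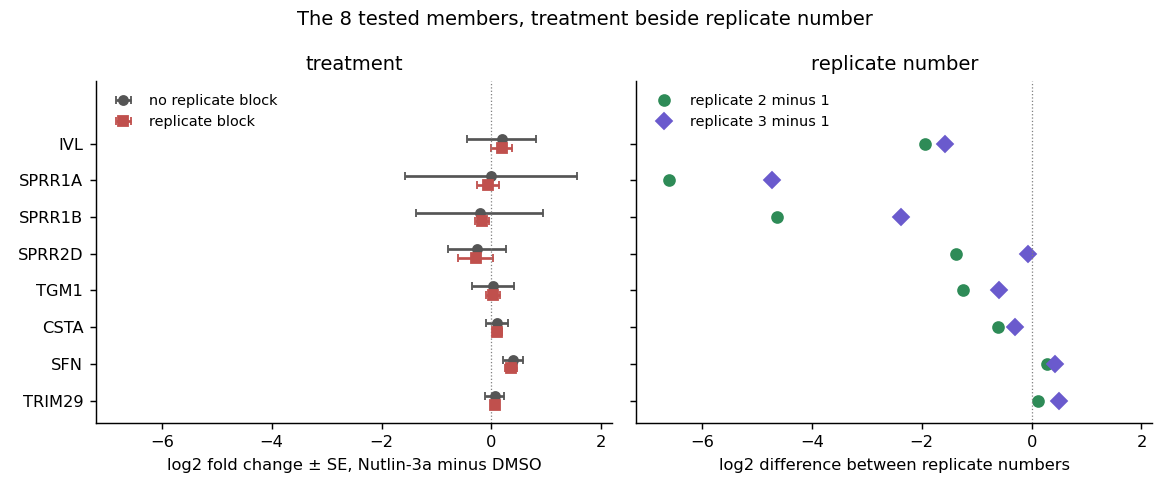
Left, log2 fold change (Nutlin-3a minus DMSO) with its SE for the 8 tested members, without and with the replicate block; right, the log2 difference of replicates 2 and 3 from replicate 1 in the fit with the block. The treatment differences lie between -0.29 and 0.39, while those between replicate numbers reach -6.61 in SPRR1A.

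Other genes of the programme were also highest in replicate 1. Of the 46 tested genes of the 105, 0 were called for Nutlin-3a. In edgeR's quasi-likelihood test 4 had an unadjusted p under 0.05, as had 463 of all 13529 tested genes. With the replicate block 13 had, as had 1584 of all tested genes. By replicate number 27 of the 46 differed, against 24.5% of all tested genes. Of the 46 tested genes, 12 differed with both libraries of replicate 1 highest and 3 with both lowest, against 7.21% and 7.52% of all tested genes. KRT16 had 87.9 and 86.6 CPM in DMSO and Nutlin-3a replicate 1 and 5.95 to 8.87 CPM in the other 4 libraries. SBSN, suprabasin, had 26.4 and 24.8 CPM there and 1.87 to 2.83 CPM elsewhere, and PI3, elafin, an envelope-bound protease inhibitor, had 76.4 and 75.2 CPM against 10.3 to 34.5 CPM. TGM2 ran the other way, with 24.9 and 23.8 CPM in replicate 1 and 44.03 to 57.6 CPM elsewhere. Of the markers of other cell types, DCN, a fibroblast gene, moved with the replicate number, with 12.9 and 14.1 CPM in replicate 1 and 94.5 to 137 CPM elsewhere. The fibroblast and mesenchymal list as a whole summed to 720 to 839 CPM in DMSO and 703 to 852 CPM in Nutlin-3a libraries, the leukocyte list to 2.16 to 8.36 CPM over all libraries and the endothelial list to at most 0.430 CPM. Their part in the difference between replicate numbers was not tested, and what a number stands for is not given in the sources used here. In bulk RNA, fewer cells that express a gene and less RNA per cell cannot be told apart.

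Without both libraries of replicate 1, 0 of 7 tested members were called and 1 had an unadjusted p under 0.05 in edgeR's quasi-likelihood test. In that fit the SFN log2 fold change was 0.54 (SE 0.12, adjusted p = 0.877 with Benjamini-Hochberg adjustment). NOTCH1, a receptor that promotes the exit from the basal layer, was the 1 gene of the lists that was called with the replicate block (edgeR quasi-likelihood, Benjamini-Hochberg adjusted p = 3.01e-05), and was not called without it (0.298). It had 106, 136 and 188 CPM in DMSO and 240, 276 and 340 CPM in Nutlin-3a libraries, and the groups did not overlap.

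Set beside each other without a test, as the tables were counted on different annotations (CD68 had 271 and 275 reads in untreated MCF10A and 0 in each DMSO library), the parental libraries of both experiments did not cover the same range in every member. SPRR1A ran from 0.0620 CPM, a single read, to 15.9 CPM over the 6 libraries of the Nutlin-3a experiment and was at 1.00 and 0.969 CPM in untreated MCF10A cells. The bound of 3 reads over both G12V libraries was 0.0655 CPM, so the lowest of those parental libraries was not above it. TRIM29 is left out here, since its rows in the tables share under 1 kb. The lowest parental SFN value was 630 CPM and the highest in G12V cells 154 CPM, and for CSTA these were 63.6 and 13.6 CPM. TGM1 came closer, with 5.64 CPM in Nutlin-3a replicate 2 and 2.65 CPM in G12V replicate 1.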

How the data were processed

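RNA-seq of 10 libraries was used. Per the labels and methods, poly(A) RNA was made into NEBNext Ultra libraries and sequenced on a HiSeq instrument. Per the submitters' processing notes the authors used TopHat, HTSeq and edgeR with hg19. They deposited raw counts per gene, not normalized. The annotations and the strand setting are not given in the sources used here.

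The counts were fitted by comparison over all genes with edgeR 4.0.16 in R 4.3.3 (filterByExpr, TMM, quasi-likelihood F-test, Benjamini-Hochberg adjustment, no replicate block). A prior count of 0.125 enters each log2 fold change, whose SE was taken as its absolute value divided by the root of F. The fits were tested on simulated data. In the Nutlin-3a experiment, same-numbered libraries deviated together from their group means (Pearson's r across genes 0.62, 0.60 and 0.64, other pairs -0.47 to -0.19), which was taken as pairing. As deviations sum to 0 within a group, the negative values of the other pairs follow in part from the positive ones. Alternatives were DESeq2 1.42.0, the exact test, other scalings and filters, a prior count of 2, the block and each library left out.

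The members, lists and tests were chosen with earlier results of these data known. Named are all members, HRAS, CDKN1A and MDM2, list genes called in a comparison (values for at most 6 per list, those of at least 10 CPM on average with the largest changes), list genes a sentence is about and genes beside the members. The other list genes given with values (KRT13, CALML3, KRT16, CST6, SPINK5, TGM4, ALOX12B, ZNF750, LAMB3, CD14, LUM and, by replicate number, KRT16, SBSN, PI3, TGM2 and DCN) were chosen after their values were seen. Some list genes, though counted, are not reported here by name. Exon lengths and transcripts came from GENCODE v44 on GRCh37, promoters from RefSeq. Python 3.11.15, pandas 2.3.3 and matplotlib 3.10.9 were used.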

Additional observations from a re-analysis of the deposited data

How the results depend on the processing

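The 7 tested members kept a log2 fold change below 0 in G12V cells under every alternative that tested them. The number called was 0 to 8 when each library was left out, 0 without MCF10A replicate 1, 7 with DESeq2, edgeR's exact test and the replicate block, and 5 when over 1 CPM was required in 2 libraries, which removed IVL and SPRR1A. Of the 105 list genes 0 to 26 were called in those leave-outs, again 0 without MCF10A replicate 1. Genes called in the complex numbered 9 with DESeq2, 11 with the exact test, 16 with the replicate block (12 lower and 4 higher, S100A8 and S100A9 among the higher) and 0 to 10 over the leave-outs, with 9 without MCF10A replicate 2 and 10 without G12V replicate 1. SPRR2D entered the fit and was called without MCF10A replicate 2 or without G12V replicate 1. Over all genes of this comparison 1575 were called, 2526 with the exact test, 4158 with the replicate block and 0 to 2129 over the leave-outs. The replicate numbers of this comparison form 2 pairs only (correlation of deviations 0.49 within numbers), so they may share no more than a number. With 2 libraries a group, the value of -0.49 between numbers is the negative of that by construction.

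No member was called for Nutlin-3a under any alternative, and pairing the libraries by the replicate block changed no member's call. NOTCH1 made the list count 1 with DESeq2, the exact test, no filter and the replicate block. All genes called numbered 23, but 91 with DESeq2, 83 with the exact test, 99 with no filter, 165 with the replicate block, 7 to 11 with a library left out and 4 without replicate 1 of both treatments. The signs of 7 of the 8 tested members turned on single libraries. Over the leave-outs the log2 fold change ran from -0.67 to 1.01 in IVL, -4.23 to 3.60 in SPRR1A, -1.96 to 1.69 in SPRR1B, -0.74 to 0.17 in SPRR2D, -0.33 to 0.39 in TGM1, -0.047 to 0.30 in CSTA and -0.10 to 0.22 in TRIM29. That of SFN stayed above 0, from 0.23 to 0.57. With library totals alone that of TGM1 was -0.0015. The cause of these shifts was not tested.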
